A study of Mus musculus with 14 samples.

Results

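The RNA of muscle stem cells (MuSCs) that express the RNA-binding protein Lin28a was compared with that of control MuSCs across all genes. The comparison used 4 of the 14 libraries of the study, namely 2 input libraries from control MuSCs and 2 from Lin28a+ MuSCs, which are the RNA taken before any pull-down. The members were chosen by the columns of the input table, in which the headers of the Lin28a+ columns are those of m6A-RIP samples although the sample descriptions point to them as input. They are therefore given here as libraries a and b, without a replicate number. The other 10 libraries are pull-downs with antibodies against Lin28a, Igf2bp3 or m6A and were used only to ask which genes have a row in their tables. Both groups are labelled as mouse skeletal muscle stem cells without treatment. The methods describe culture on Matrigel. Lin28a+ MuSCs came from mice with a tamoxifen-inducible Cre under the Lin28a promoter and a tdTomato reporter, so that the label marks cells in which this promoter was active. The study describes control MuSCs as cells with little or no Lin28a expression, and how they were sorted is not given in the sources used here, nor are age, strain and the number of animals behind a library. The methods state in general that experiments had biological replicates, in a higher number than the 2 libraries per group here, and the labels do not say that the libraries of a group came from separate cultures or mice. The p-values therefore measure only the spread between these libraries.

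MuSCs, or satellite cells, rest beneath the basement membrane of the muscle fibre and express the paired-box factor Pax7. When activated they express Myf5 and Myod1, divide as myoblasts, and then express Myog, leave the cell cycle, fuse and build sarcomeres. Lin28a binds RNA and blocks the maturation of let-7 microRNAs; it is abundant in embryonic cells and scarce in most adult tissues, and Igf2bp3 is a further oncofetal RNA-binding protein.

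Summed values per input library ranged from 4842915 to 6220960, over 14837 genes. No gene was at 0 in any library, so a gene detected in 1 group alone is not listed, and Lin28a, H19, Meg3 and Dlk1 were not analysed here. Pearson's r of log2(CPM + 1) across genes was 0.994 within each group and 0.934 to 0.936 between groups. CPM are counts scaled to a common library size with TMM factors. They compare a gene between libraries, not genes with each other. The summed levels of marker lists in this paragraph instead used unrounded values over the library total, without TMM factors. Of the markers of the labelled cell type, Pax7 stood at 142.5 to 193 CPM and Myf5 at 197 to 465 CPM. Cdh15 stood at 1326 to 2350 CPM and the myogenic factor Myod1 at 4651 to 4728 CPM. Some other listed markers were low, with Cav1 at 0.613 to 2.62 CPM and Vcam1 at 3.93 to 18.3 CPM. Cd34 had 0.8 to 1.83 estimated counts per library, below the filter for testing. Calcr and Chrdl2 were not analysed here. Markers of most other cells were scarce. Of 14 fibro-adipogenic markers, 8 were listed, with summed levels of 18.5 and 21.7 CPM in the control libraries against 23.9 and 22.4 CPM in Lin28a+ libraries, and Ptprc, the pan-leukocyte antigen, had 0.15 to 0.38 estimated counts per library. The 6 listed endothelial markers summed to 13.3 and 13.2 CPM in the control libraries against 4.10 and 3.86 CPM in Lin28a+ libraries, with Pecam1 at 2.10 to 2.74 estimated counts. The 5 listed Schwann and glial markers summed to 6.18 and 7.48 CPM in the control libraries against 35.2 and 32.0 CPM in Lin28a+ libraries, nearly all of it Pmp22. The 12 listed pericyte and smooth muscle markers, among them Acta2 and Des that myoblasts also express, summed to 7407 and 7586 CPM in the control libraries against 9040 and 9052 CPM in Lin28a+ libraries. The 3 listed tenocyte markers summed to 111 and 108.6 CPM in the control libraries against 147.2 and 151.4 CPM in Lin28a+ libraries, and among them Scx, a tendon bHLH factor, rose and Egr1 fell. The part of such cells in the results was not tested. In bulk RNA, fewer cells of a type and less RNA per cell cannot be told apart.

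The shift between the groups was broad, mostly small and somewhat stronger downwards. In edgeR's quasi-likelihood test over 11317 genes, 56.8% passed an adjusted p under 0.05, with 3184 genes (28.1%) higher and 3248 (28.7%) lower in Lin28a+ MuSCs. Of these 6432 genes, 3039 (47.2%) changed by less than 1.5-fold. Past 2-fold the 2 directions parted, with 510 genes (4.51%) higher and 988 (8.73%) lower. Past 4-fold there were 103 higher and 267 lower genes, past 8-fold 42 and 117, and past 16-fold 16 and 39. Over all genes the log2 fold change had a median of 0.01 and quartiles of -0.44 and 0.37. The libraries of the groups did not overlap in 84.8% of genes. The common biological coefficient of variation was 2.48%. With DESeq2, which gave the fewest calls of the tools tried, 1479 genes were higher and 1560 lower.

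**Figure D1:**
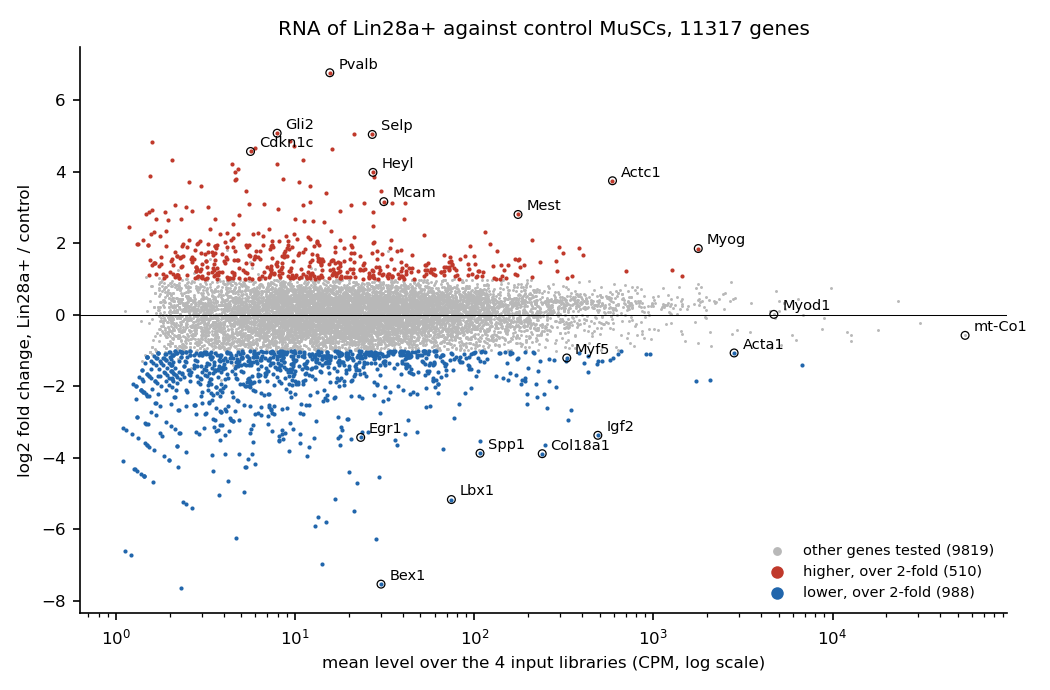
Each point is a gene, placed by its mean level over the 4 input libraries in CPM (log axis) and its log2 fold change, with genes past the threshold and over 2-fold in red (510 higher) or blue (988 lower) and named genes circled. The lower side reaches further, to -7.54 for Bex1, and Myod1 lies at 0.01.

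Among genes with a mean of at least 10 CPM, the 15 with the largest increase were led by Pvalb. Pvalb, the calcium buffer of fast muscle fibres, had 0.375 and 0.161 CPM in the control libraries against 33.0 and 28.8 CPM in Lin28a+ libraries. Its control libraries together held 3 counts, which gives a ratio of 119 with a 95% counting interval of 40.4 to 581. Selp, the leukocyte-binding adhesion receptor P-selectin, had 1.69 and 1.45 CPM in the control libraries against 53.3 and 51.3 CPM in Lin28a+ libraries (log2 fold change 5.05, SE 0.093, edgeR adjusted p = 4.48e-06). Scarf2, a scavenger receptor family member, and Tbx1, a T-box factor of branchial muscle development, rose by log2 fold changes of 5.07 and 4.32. The list also held Mcam, a cell adhesion molecule (3.17), Nos1, the neuronal nitric oxide synthase of muscle (3.42), Daam2, a formin-related Wnt pathway protein (3.61), and Dusp9, a phosphatase of MAP kinases (3.14). The others of the 15 were Zcchc3, Heyl, Tmem151b, Actc1, Cpa4, Capn6 and Arxes1, from 3.16 to 4.64.

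The 15 largest decreases were led by Bex1, a small adaptor-like protein of regenerating muscle and neurons. Bex1 had 58.4 and 61.5 CPM in the control libraries against 0.393 and 0.204 CPM in Lin28a+ libraries, 3 counts in all, which gives a control to Lin28a+ ratio of 199.8 (95% counting interval 68.1 to 971). Lbx1, the homeobox factor of limb muscle precursors, had 143.9 and 145.9 CPM in the control libraries against 3.93 and 4.09 CPM in Lin28a+ libraries (log2 fold change -5.17, SE 0.061, edgeR adjusted p = 1.42e-06). Further members were Sp7, the osteoblast factor osterix (-5.50), Gdf6, a BMP family ligand (-5.91), Col1a2, a chain of type I collagen (-4.71), Cdh11, a mesenchymal cadherin (-4.54), and Spp1, the matrix phosphoprotein osteopontin (-3.87). Others were Dok5 (-6.27), Sim2 (-5.80), Tcerg1l (-5.66), Adgrf4 (-5.14), Pcdhga1 (-4.39), Dusp2 (-3.95) and Col18a1 (-3.88). In Lin28a+ libraries a and b Gdf6 had 3 and 1 counts, Tcerg1l 4 and 1, Sim2 3 and 2 and Dok5 3 and 4. The sizes of these 4 decreases are therefore imprecise. Pcdhga1 shares exons with the neighbouring protocadherin genes of its cluster, so its level is uncertain.

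Among the myogenic regulatory factors Myog rose, Myf5 fell and Myod1 did not pass the test. Myod1, which commits cells to the muscle lineage, had 4651 and 4713 CPM in the control libraries against 4723 and 4728 CPM in Lin28a+ libraries. This difference did not pass the test (log2 fold change 0.01, SE 0.020, edgeR adjusted p = 0.605). Myog, which drives differentiation, rose from 766 and 775 CPM to 2769 and 2809 CPM, a log2 fold change of 1.86 (SE 0.022, edgeR adjusted p = 1.42e-06). Myf5, the earliest of the family in activated cells, fell from 451 and 465 CPM to 197 and 200.4 CPM (-1.21, SE 0.029). Pax7 rose slightly, from 142.5 and 154.5 CPM to 193 and 188 CPM (0.36, SE 0.045, edgeR adjusted p = 0.00108). Mef2a and Mef2c, which encode partners of the myogenic factors, fell by 1.11 and 1.51 on the log2 scale, of which the second did not pass in DESeq2. Of the 17 tested myogenic regulatory and Mef2 factors, 5 rose (29.4%) and 7 fell (41.2%), where the shares of all genes were 28.1% and 28.7%.

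Other muscle stem cell markers mostly fell, while Notch targets among them rose. Of 22 tested markers, 5 rose (22.7%) and 13 fell (59.1%), against 28.1% and 28.7% of all genes. The 11 that fell over 2-fold compare with 8.73% of all genes, and the median was -0.88. Heyl, a Notch-induced repressor, rose from 2.43 and 3.86 CPM to 47.6 and 54.8 CPM (3.99, SE 0.167, edgeR adjusted p = 2.77e-05). Hey1, its relative, rose from 28.1 and 30.9 CPM to 81.6 and 81.0 CPM (1.46, SE 0.053). The adhesion gene Cdh15, or M-cadherin, rose by 0.77, and the tetraspanin gene Cd82 rose by 0.74. Megf10, a receptor that favours myoblast proliferation, fell from 407 and 400.3 CPM to 86.9 and 87.3 CPM (-2.21), and Sdc3, a heparan sulphate proteoglycan of the satellite cell surface, fell by 1.95 on the log2 scale. Vcam1, the adhesion receptor used to sort MuSCs, had 16.9 and 18.3 CPM in the control libraries against 3.93 and 5.32 CPM in Lin28a+ libraries (-1.93). Among 17 tested repressors of myogenesis, 5 rose and 8 fell, with Snai1 up by 1.65 and Snai2 down by 1.34 on the log2 scale, although both encode zinc finger repressors that bind the same E-boxes.

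Most sarcomere genes fell, while a few rose strongly. Of 47 tested genes, 11 rose (23.4%) and 29 fell (61.7%), against 28.1% and 28.7% of all genes, with a median of -0.57. Over 2-fold, 4 rose and 16 fell, against 4.51% and 8.73% of all genes. Actc1, the alpha-actin of the heart and of embryonic skeletal muscle, rose from 83.9 and 79.5 CPM to 1111 and 1089 CPM (3.75, SE 0.034, edgeR adjusted p = 1.26e-06). Acta1, the alpha-actin of adult skeletal muscle, fell from 3816 and 3824 CPM to 1836 and 1813 CPM (-1.07, SE 0.021, edgeR adjusted p = 4.83e-06). The alpha-actins thus moved in opposite directions, although their coding sequences are near-identical and the counting could split reads between them. Acta2, the smooth muscle alpha-actin, rose from 5438 and 5401 CPM to 7439 and 7421 CPM (0.46), the change of the cytoplasmic actin gene Actb was 0.07 and was lost in DESeq2, and Actg1 (0.02) and Actg2 (-0.31) did not pass. The slow troponin T gene Tnnt1 (1.48), the slow myosin-binding protein gene Mybpc1 (1.14) and the perinatal myosin heavy chain gene Myh8 (1.03) rose. Among the genes that fell were Xirp2, from 70.8 and 66.8 CPM to 5.11 and 5.93 CPM (-3.63), Neb, the thin filament ruler nebulin (-2.56), and Myh4, the fastest adult myosin heavy chain (-2.75). The cardiac and embryonic troponin T gene Tnnt2 fell by 2.21 on the log2 scale, from 73.1 and 71.6 CPM to 15.3 and 15.9 CPM.

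**Figure D2:**
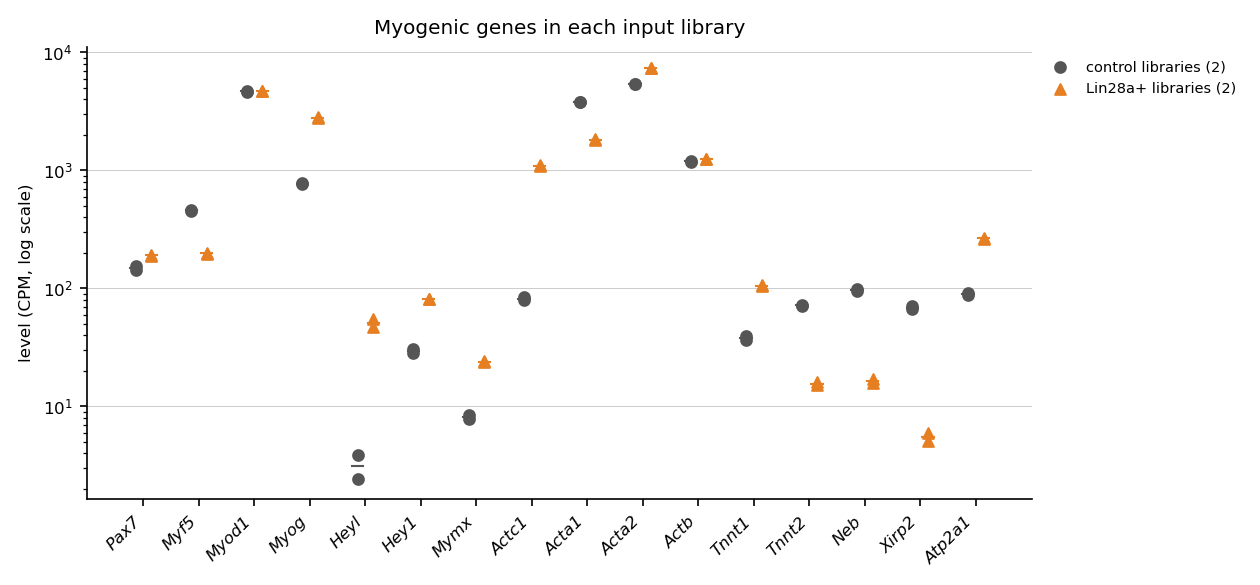
Levels in CPM (log axis) of 16 myogenic genes in each of the 2 control (circles) and 2 Lin28a+ (triangles) input libraries, with short lines at the group means. Myog and Actc1 rose, Acta1 and Tnnt2 fell, and Myod1 was between 4651 and 4728 CPM in all 4 libraries, while the libraries of a group lie close together for each gene.

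The promoters of 5 of these genes are shown because the muscle factors of this comparison act through short motifs near the start: E-boxes (CANNTG on either strand, of which CAGCTG is the form that the MyoD family prefers) and the CArG box, which serum response factor binds and which is frequent in actin genes. Each run holds the 250 bases before the RefSeq start in GRCm38.p6, in the direction of the gene, with E-boxes and CArG boxes in capitals. Myog, Actc1 and Atp2a1 rose, and Acta1 and Tnnt2 fell.
Myog, chr1:134289754-134290003, plus strand: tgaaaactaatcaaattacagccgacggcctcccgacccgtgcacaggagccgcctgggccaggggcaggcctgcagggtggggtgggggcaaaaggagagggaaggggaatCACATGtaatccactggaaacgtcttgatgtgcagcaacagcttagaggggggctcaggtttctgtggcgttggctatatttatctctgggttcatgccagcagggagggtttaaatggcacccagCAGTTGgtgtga
Actc1, chr2:114052876-114053125, minus strand: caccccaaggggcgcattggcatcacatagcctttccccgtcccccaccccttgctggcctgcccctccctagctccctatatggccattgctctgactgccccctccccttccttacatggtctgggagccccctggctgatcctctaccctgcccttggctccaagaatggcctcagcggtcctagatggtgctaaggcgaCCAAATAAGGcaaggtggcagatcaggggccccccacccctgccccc
Acta1, chr8:123894776-123895025, minus strand: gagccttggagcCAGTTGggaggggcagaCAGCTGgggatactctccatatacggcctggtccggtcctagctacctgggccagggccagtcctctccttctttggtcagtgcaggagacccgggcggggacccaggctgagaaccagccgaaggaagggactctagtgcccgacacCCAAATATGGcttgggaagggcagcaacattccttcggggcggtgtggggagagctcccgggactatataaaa
Atp2a1, chr7:126463074-126463323, minus strand: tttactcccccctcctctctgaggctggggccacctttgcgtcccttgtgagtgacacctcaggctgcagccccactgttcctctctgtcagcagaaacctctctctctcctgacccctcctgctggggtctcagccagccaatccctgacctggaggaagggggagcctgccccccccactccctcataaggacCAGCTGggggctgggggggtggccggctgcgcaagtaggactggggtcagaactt
Tnnt2, chr1:135836084-135836333, plus strand: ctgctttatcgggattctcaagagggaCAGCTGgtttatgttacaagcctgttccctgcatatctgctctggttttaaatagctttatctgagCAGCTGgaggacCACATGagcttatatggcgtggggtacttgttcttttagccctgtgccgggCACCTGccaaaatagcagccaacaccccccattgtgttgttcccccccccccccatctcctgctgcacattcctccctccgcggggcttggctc

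The runs hold 2 E-boxes before Myog, 1 CArG box before Actc1, 2 E-boxes and 1 CArG box before Acta1, 1 E-box before Atp2a1 and 4 E-boxes before Tnnt2, for which the first of its starts is shown and the run before the other start holds 1 E-box, CAGTTG. Over the 300-base windows from 250 before to 50 after the start, 15.6% of 424 promoters of genes over 2-fold higher held CAGCTG, against 22.0% of 902 promoters of genes over 2-fold lower, 15.2% of 10922 promoters of all genes tested and 16.3% of all 32851 promoters. A CArG box stood in 0.94%, 1.66%, 1.29% and 1.63% of these promoters, and CANNTG in 64.4%, 72.2%, 62.4% and 72.3%. A looser form of the CArG box, CC and GG with any 6 bases between, stood in 89.4% of promoters of higher genes, 83.3% of lower genes, 86.5% of all genes tested and 73.3% of all promoters. Promoters were matched by symbol for 342 of the 510 higher and 678 of the 988 lower genes.

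In the lists of fusion, excitation and neuromuscular junction genes more genes fell than rose. Of 24 tested fusion genes, 4 rose and 14 fell. Mymx, the fusogenic micropeptide myomixer, rose from 7.87 and 8.53 CPM to 23.6 and 24.3 CPM (1.54, SE 0.073), whereas Tmem182, a membrane protein that restrains fusion (-2.21), Dock5, a guanine nucleotide exchange factor of fusing myoblasts (-2.09), and Cdh2, or N-cadherin (-1.23), fell. Among 24 excitation-contraction and energy genes, 4 rose and 12 fell. Atp2a1, the calcium pump of the fast sarcoplasmic reticulum, rose from 87.7 and 91.1 CPM to 263.6 and 268 CPM (1.57, SE 0.032), and Trdn, which anchors the calcium release complex, fell by 2.48 on the log2 scale. Neuromuscular junction genes had 2 higher and 9 lower of 13, with Musk, the receptor kinase of the synapse, at -1.14 and its partner Lrp4 at -1.05. Over all 160 tested genes of myogenic state, 33 rose (20.6%) and 91 fell (56.9%), against 28.1% and 28.7% of all genes, and the median was -0.37.

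Matrix genes fell more often than they rose, while Col4a1, Col4a2 and some elastic fibre genes rose. Of 129 tested matrix genes, 28 rose (21.7%) and 64 fell (49.6%), against 28.1% and 28.7% of all genes, with a median of -0.48. DESeq2 called 15 higher. Col18a1, a basement membrane collagen that releases endostatin, fell from 439.6 and 457.5 CPM to 31.5 and 29.2 CPM (-3.88, SE 0.048, edgeR adjusted p = 1.42e-06). Of 17 basement membrane genes, 4 rose and 11 fell. Its network collagen genes Col4a1, with 98.2 and 95.6 CPM in the control libraries against 185 and 188 CPM in Lin28a+ libraries, and Col4a2 rose by 0.94 and 0.73 on the log2 scale, and the laminin chain gene Lama5 rose by 1.41, whereas Nid1, which links laminin to type IV collagen, fell by 1.35. Of 9 fibrillar and associated collagens, 2 rose (Col11a1 and Col27a1, both lost in DESeq2) and 5 fell, with a median of -0.13, and Col5a2 fell from 292 and 298 CPM to 103 and 107.5 CPM (-1.49).

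Matricellular proteins, which sit in the matrix and signal to cells, had 3 higher (15.8%) and 13 lower (68.4%) of 19 genes, where the shares of all genes were 28.1% and 28.7%, with Spock2 (1.57) and Fbln1 (1.15) higher, and Spp1 and the thrombospondin gene Thbs2 (-3.51) lower. Of 11 proteoglycan genes, 2 rose and 7 fell, led by Sdc3, the hyaluronan synthase gene Has2 (-1.83), Ogn (-1.59) and the large proteoglycan gene Vcan (-1.44). In the elastic fibre list 5 rose (45.5%) and 3 fell (27.3%) of 11, with Loxl2, a lysyl oxidase that crosslinks collagen and elastin, at 0.937 and 1.29 CPM in the control libraries against 14.4 and 17.8 CPM in Lin28a+ libraries (3.81). Ltbp4, which anchors latent TGF-beta to elastic fibres, rose by 3.08, while Lox, the related oxidase, fell by 1.85 on the log2 scale. The median of this list was -0.13 and turned positive when 1 of the control libraries or Lin28a+ library b was left out (0.07 to 0.16). Integrin genes had 2 higher and 5 lower of 10, including Itgb1, the common beta chain of matrix receptors, which fell from 887.5 and 879.7 CPM to 435 and 440.2 CPM (-1.01), and Itga3, a laminin receptor chain, which rose by 1.28.

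**Figure D3:**
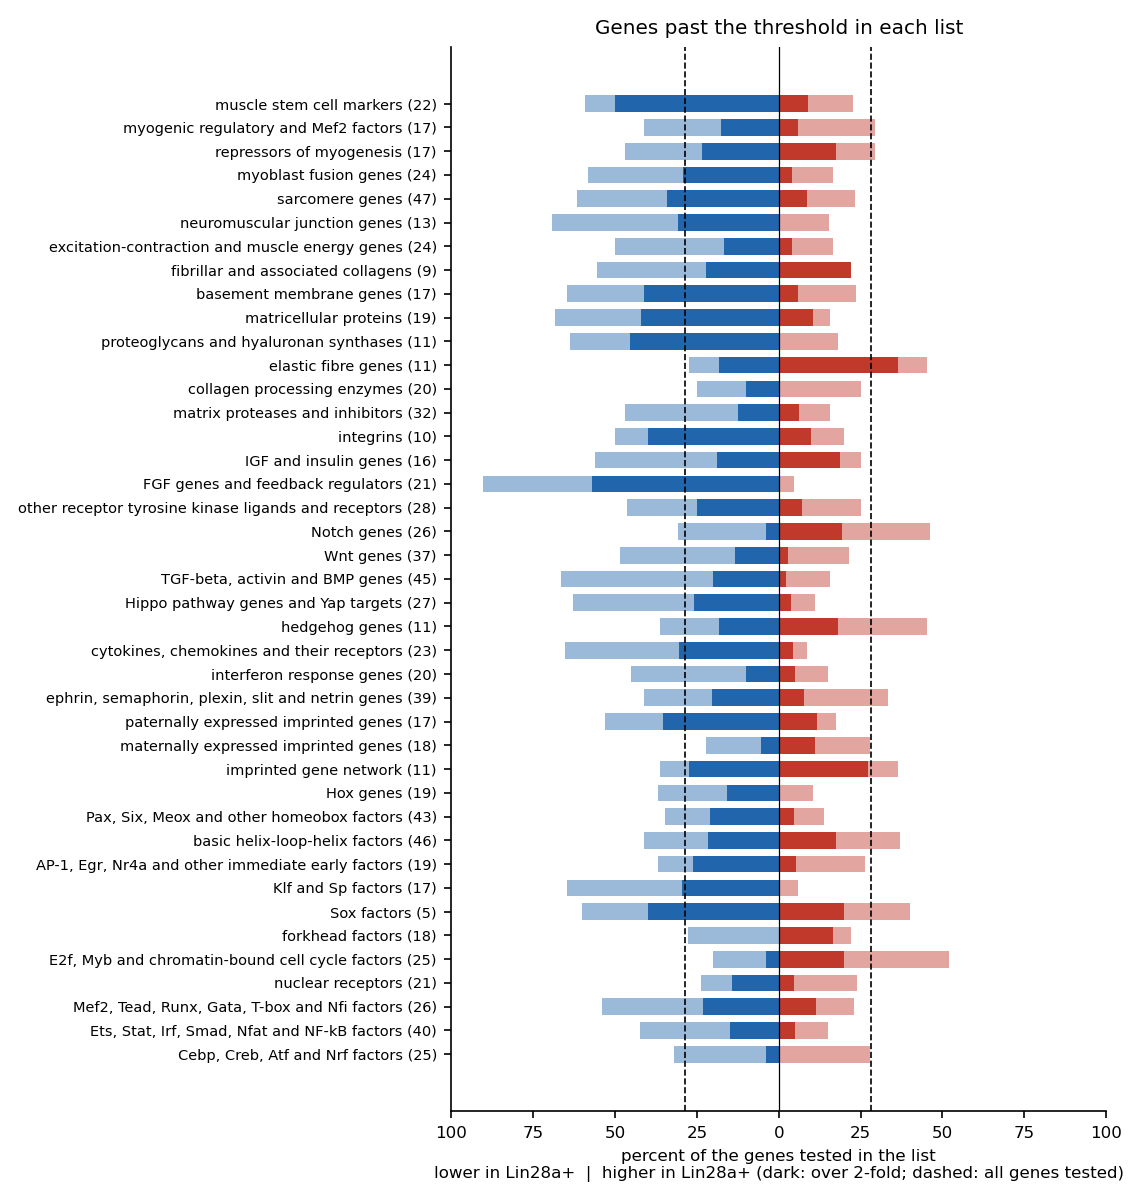
Percent of the tested genes of each list of myogenic state, matrix, signalling, imprinted and transcription factor genes that passed the threshold lower (blue, left) or higher (red, right) in Lin28a+ MuSCs, with the number tested in parentheses, the darker bars for changes over 2-fold and dashed lines at the shares of all genes (28.7% lower, 28.1% higher). Of the lists drawn, that of FGF genes and feedback regulators reaches furthest to the left, with 19 of 21 genes lower, and that of E2f, Myb and cell cycle factors furthest to the right, with 13 of 25 higher.

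Signalling genes fell more often than they rose, with FGF genes nearly all lower and more Notch and hedgehog genes higher than lower. Of 288 tested signalling genes, 64 rose (22.2%) and 156 fell (54.2%), against 28.1% and 28.7% of all genes, with a median of -0.35. DESeq2 called 34 higher and 102 lower. Among 21 FGF genes and feedback regulators, 1 rose and 19 fell, 12 of them over 2-fold, with a median of -1.34. Etv5, a transcription factor induced by FGF and ERK signalling, fell from 14.99 and 17.1 CPM to 1.97 and 1.23 CPM (-3.31, SE 0.185, edgeR adjusted p = 6.35e-05). Dusp6, the phosphatase that ERK induces against itself, fell from 8.99 and 8.69 CPM to 1.57 and 1.43 CPM (-2.54), and Etv4 fell by 1.76 on the log2 scale. Fgf21, an endocrine ligand, was the member that rose (0.98), and its call was lost without control replicate 2 or without Lin28a+ library b. Outside this list Egr1, an immediate early factor, fell from 45.1 and 39.9 CPM to 4.32 and 3.48 CPM (-3.43). Of the 19 tested AP-1, Egr, Nr4a and other immediate early factors, however, 5 rose, among them Ier5 (1.15), and 7 fell, and the median was near 0.

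Notch genes had 12 higher (46.2%) and 8 lower (30.8%) of 26, where the shares of all genes were 28.1% and 28.7%, with a median of 0.12 that was -0.04 without Lin28a+ library b and -0.08 without a filter on low counts. The transcriptional targets Heyl and Hey1 rose, as did the feedback inhibitor Nrarp, from 1.87 and 4.02 CPM to 10.6 and 13.3 CPM (1.97). Dtx4, an E3 ligase of Notch trafficking, rose from 77.0 and 81.7 CPM to 346 and 330.0 CPM (2.09, SE 0.043, edgeR adjusted p = 5.20e-06), and Lfng, which glycosylates Notch receptors, rose by 1.57. The coactivator gene Maml2 fell by 1.58 on the log2 scale and Hes6, a myogenic relative that opposes Hes1, by 0.98. In the hedgehog list 5 rose (45.5%) and 4 fell (36.4%) of 11. Gli2, an effector of the pathway, had 0.375 and 0.483 CPM in control, 5 counts together, and 15.7 and 15.1 CPM in Lin28a+ libraries (5.08, SE 0.152), and Gas1, a coreceptor, rose from 195.9 and 190.8 CPM to 612 and 614.6 CPM (1.67), while the coreceptors Boc and Cdon fell by 1.04 and 0.99 on the log2 scale.

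Among IGF genes Igf2 fell, and Igfbp5 and Igf2bp3 rose. Igf2, the fetal growth factor that promotes myoblast differentiation, fell from 882.5 and 902.7 CPM to 85.5 and 87.1 CPM (-3.37, SE 0.031, edgeR adjusted p = 1.26e-06). Igfbp5, the binding protein that concentrates Igf2 at the surface of differentiating myoblasts, rose from 745.9 and 758.8 CPM to 1804 and 1793 CPM (1.26, SE 0.022). Igf2bp3 rose from 11.6 and 10.6 CPM to 35.6 and 33.9 CPM (1.65, SE 0.070, edgeR adjusted p = 2.92e-05), and Irs2, an adaptor of the insulin receptor, rose by 1.09. Igfbp7 fell by 1.88 on the log2 scale, and of the 16 tested genes of the list 4 rose (25%) and 9 fell (56.2%), against 28.1% and 28.7% of all genes. Twist2, a bHLH repressor of muscle differentiation, had 1 and 5 estimated counts in control and 7 and 4.5 in Lin28a+ libraries, below the filter for testing.

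TGF-beta, activin and BMP genes had 7 higher (15.6%) and 30 lower (66.7%) of 45, where the shares of all genes were 28.1% and 28.7%, with a median of -0.38. Nog, the BMP antagonist noggin, rose from 19.9 and 23.2 CPM to 62.9 and 74.6 CPM (1.66). Smad7, the inhibitory Smad that TGF-beta induces, fell by 1.65 on the log2 scale, and Eng, a coreceptor also counted as an endothelial marker, fell by 2.51. Of 27 Hippo pathway genes and Yap targets, 3 rose and 17 fell. The Yap targets Ccn2 and Ankrd1 fell by 2.02 and 1.26 on the log2 scale, Ankrd1 from 816.7 and 805.5 CPM to 333 and 343 CPM, and Tead1, the DNA-binding partner of Yap, fell by 1.13. Wnt genes had 8 higher and 18 lower of 37, among them the receptor genes Fzd4 (1.56) and Fzd5 (-2.25) and the R-spondin receptor gene Lgr6 (-3.81).

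Imprinted genes, which are expressed from one parental allele and many of which regulate fetal growth, changed in both directions. Of 35 tested imprinted genes, 8 rose (22.9%) and 13 fell (37.1%), against 28.1% and 28.7% of all genes, with a median of -0.09 that was 0.09 relative to genes of similar span. DESeq2 called 4 higher and 8 lower, and a minimum of 10 counts in every library left 4 higher. All 11 tested members of the imprinted gene network, a set of co-expressed growth genes, were followed, of which 4 rose and 4 fell. Igf2 fell as described. Ndn, a growth-suppressing MAGE protein, fell from 89.7 and 94.8 CPM to 16.9 and 13.9 CPM (-2.58, SE 0.081), and Peg3, a zinc finger factor of adult muscle stem cells, fell from 867 and 868 CPM to 397 and 416 CPM (-1.09). Mest, a paternally expressed hydrolase-like protein of mesoderm, rose from 43.3 and 44.3 CPM to 306 and 308 CPM (2.81, SE 0.032, edgeR adjusted p = 1.42e-06). Cdkn1c, the cyclin-dependent kinase inhibitor p57, had 0.562 and 0.322 CPM in control, 5 counts together, and 11.2 and 10.4 CPM in Lin28a+ libraries (4.57, SE 0.204), and Nnat, or neuronatin, rose from 1.31 and 1.13 CPM to 8.84 and 8.18 CPM (2.79). Igf2r, which clears Igf2 from the cell surface, differed by -0.01 (edgeR adjusted p = 0.922), and Gnas (-0.09) and Sgce (0.34) did not pass, although both passed in limma-trend. Plagl1 fell by 0.36 and Gatm rose by 0.31 on the log2 scale, and both calls were lost in DESeq2. Outside the network, Zdbf2, a paternally expressed gene of growth control, had 4.68 and 4.99 CPM in the control libraries against 1 count after rounding in the Lin28a+ libraries together, a ratio of 48.4 (95% counting interval 8.33 to 1944).

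**Figure D4:**
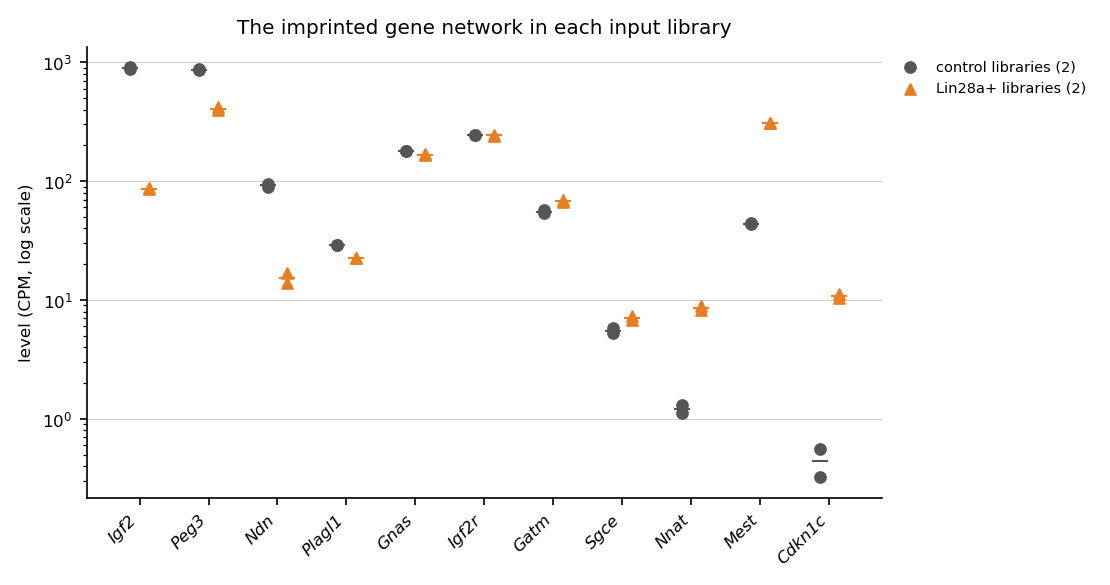
Levels in CPM (log axis) of the 11 tested genes of the imprinted gene network in each of the 2 control (circles) and 2 Lin28a+ (triangles) input libraries, with short lines at the group means. Igf2 and Ndn fell, Mest, Nnat and Cdkn1c rose, and Igf2r was 241 to 243 CPM in all 4 libraries.

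Of 17 genes listed as paternally expressed 3 rose and 9 fell (17.6% and 52.9%). Of 18 listed as maternally expressed 5 rose and 4 fell (27.8% and 22.2%, near the 28.1% and 28.7% of all genes). The difference between the lists was not tested, and the expressed allele was not measured in these libraries. Ddc, one of the 5 that rose, stands in the maternal list, but this assignment is uncertain. Impact, an inhibitor of the kinase Gcn2, fell by 1.53 on the log2 scale, and Ddc, the aromatic amino acid decarboxylase, rose from 1.31 and 0.965 CPM to 10.0 and 9.81 CPM (3.11, SE 0.157).

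Transcription factors were split, with 72 higher (23.9%) and 116 lower (38.5%) of 301, against 28.1% and 28.7% of all genes, and a median of -0.13. DESeq2 called 43 higher and 66 lower. More cell cycle factors rose than fell, with 13 higher and 5 lower of 25 and a median of 0.41. E2f2, an activator of S phase genes, rose from 7.31 and 6.92 CPM to 60.9 and 63.0 CPM (3.12, SE 0.064, edgeR adjusted p = 5.20e-06), E2f8, a repressor of the same genes, rose by 1.51, and Mybl2 and Foxm1, which drive mitotic genes, rose by 1.25 and 1.09. Hmga2, a chromatin protein of embryonic cells and a target of let-7, fell from 142 and 135 CPM to 22.0 and 27.6 CPM (-2.48, SE 0.083). Rb1, which holds E2f factors inactive, fell by 0.68 on the log2 scale.

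Klf and Sp factors had 1 higher and 11 lower of 17 (5.88% and 64.7%), with a median of -0.67. Over all genes, the background for this and the next families, 28.1% were higher and 28.7% lower, or 56.8% in either direction. Klf5 fell from 60.3 and 59.4 CPM to 14.2 and 15.9 CPM (-1.99), Klf2 fell by 3.07 on the log2 scale, and Klf16 was the member that rose (0.68). Among homeobox factors other than Hox, 6 rose and 15 fell of 43, with Irx3 down by 1.47 on the log2 scale beside Lbx1. Hox genes, which encode position along the body axis, had 2 higher and 7 lower of 19. Hoxc13 fell from 74.2 and 75.1 CPM to 17.7 and 15.7 CPM (-2.16), and Hoxb4 fell by 1.44 on the log2 scale. All 5 tested Sox genes passed, with Sox8 (2.55) and Sox12 (1.00) higher and Sox9 (-1.61), Sox11 (-1.13) and Sox4 (-0.38) lower. Basic helix-loop-helix factors were split, with 17 higher and 19 lower of 46, and the glucocorticoid receptor gene Nr3c1 fell (-1.26) while the vitamin D receptor gene Vdr rose (1.89).

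The composition of the libraries shifted too. The 13 mitochondrially encoded mRNAs took 17.0% and 17.2% of the values in control and 12.1% and 12.3% in Lin28a+ libraries. Of them 12 fell, none over 2-fold, where 28.7% of all genes fell and 8.73% fell over 2-fold. mt-Co1, a subunit of cytochrome c oxidase, fell from 65770 and 65800 CPM to 43850 and 44510 CPM (-0.57, SE 0.016), mt-Atp6 fell by 0.72 on the log2 scale, and mt-Co2 differed by -0.08 without passing (edgeR adjusted p = 0.594).

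The direction of change followed the genomic span of the gene, a pattern noticed after the lists had been examined. Span is the length of the gene in the RefSeq annotation of GRCm38.p6, introns included. Genes with a known span were cut into 5 groups of equal size. In the shortest group, up to 7.41 kb, 43.8% rose and 14.7% fell, with a median of 0.26. The medians of the next groups were 0.17, 0.04 and -0.13. In the longest group, above 66.9 kb, 11.9% rose and 50.3% fell, with a median of -0.39, and 18.3% fell over 2-fold. Genes that rose had a median span of 13.2 kb, genes that fell 41.8 kb and genes that did not pass 22.8 kb. The gradient was also present among genes with a mean of at least 10 CPM, from 0.29 in the shortest to -0.37 in the longest group. The median of the shortest group was between 0.24 and 0.29 and that of the longest between -0.40 and -0.36 in all 11 alternatives. Relative to the median of the genes in their own span group, the lists of FGF genes (-1.17), sarcomere genes (-0.70) and muscle stem cell markers (-0.63) were still lower, E2f, Myb and cell cycle factors (0.28) were still higher. The median changed sign for fibrillar collagens (to 0.05), all imprinted genes (to 0.09), the imprinted gene network (to 0.27), forkhead factors (to 0.04) and actin genes (to -0.21). Whether span had a part in any list's change was not tested.

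The share of genes with a row in the RIP tables was higher among genes that fell than among genes that rose, a description across genes with no test. A Lin28a-RIP peak was listed for 37.7% of lower, 18.5% of higher and 21.7% of other tested genes, and an Igf2bp3-RIP peak for 52.9%, 18.4% and 29.0%. Among genes that fell over 2-fold the shares were 23.6% for Lin28a-RIP and 35.9% for Igf2bp3-RIP, near the 25.4% and 32.9% of all genes tested, and among genes that rose over 2-fold they were 12.9% and 10.4%. For m6A-RIP the shares of lower, higher and other genes were 70.8%, 67.8% and 60.6%. Long genes had peaks more often, so the shares were also taken within span groups. In the shortest group an Igf2bp3-RIP peak was listed for 26.3% of lower and 9.18% of higher genes, and in the longest group for 67.2% and 30.4%. The order of lower above higher genes held in each of the 5 groups for both proteins, but not for m6A-RIP, with 73.8% of higher and 70.3% of lower genes in the middle group. For Lin28a-RIP, the order of other above higher genes held only in the longest group. From the shortest to the longest group the Lin28a-RIP shares were 6.88%, 15.55%, 26.1%, 36.8% and 32.3% of higher genes. Among other genes they were 6.82%, 11.4%, 21.9%, 34.8% and 37.4%. The median level was 23.8 CPM for lower, 36.5 CPM for higher and 11.1 CPM for other genes.

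**Figure D5:**
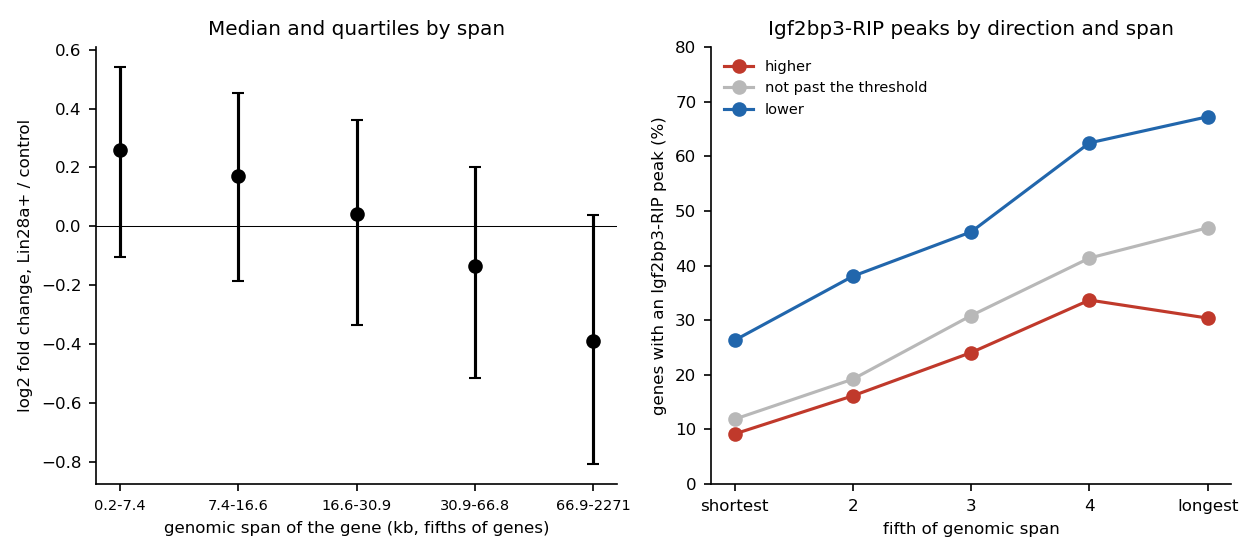
Left, the median (points) and quartiles (bars) of the log2 fold change in 5 equal groups of genes by genomic span in kb; right, the percent of genes with an Igf2bp3-RIP peak in the same groups, for genes that were higher, lower or not past the threshold. The median falls from 0.26 to -0.39 with span, and in each group the share with a peak was higher among genes that fell than among genes that rose.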

How the data were processed

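RNA-seq of input RNA was analysed for 2 control and 2 Lin28a+ MuSC libraries. The methods name Hisat2 for alignment and DESeq2 for the transcriptomes, and the submitters' processing notes list HISAT2 2.0.4, DESeq2 1.42.0, MACS2 1.4.3 and FastQC, with GRCh38 and mm10 as builds. The identifiers in the table are those of mouse genes. The authors deposited estimated counts per gene, not scaled between libraries and not always whole, with all 4 values whole in 6.00% of genes. Their fractions look like averages taken across transcripts, so that a CPM may depend on how many transcripts a gene has. The program behind them is not given in the sources used here. The RIP tables that the authors deposited hold counts of reads in peaks as whole numbers, and only their gene names were used.

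Values were rounded to whole numbers and tested in R 4.3.3 with edgeR 4.0.16. Settings were the quasi-likelihood test, TMM factors, filterByExpr, the default prior count and Benjamini-Hochberg adjusted p under 0.05 over all 11317 genes. DESeq2 1.42.0 and limma 3.58.1 (limma-trend, pseudocounts of 1 and 0.1 CPM) were alternatives, beside other size factors, total counts, no filter, at least 10 counts in every library and each library left out. The edgeR test was checked on simulated data. Summed values were 5466147 and 6220960 in control and 5057455 and 4842915 in Lin28a+ libraries. Over 512 genes with whole values and means of 20 to 2000, the libraries of a group differed by more than counting noise (chi-square over its degrees of freedom, 1.66 for control and 1.79 for Lin28a+), so none was taken for a repeat deposit of another. Counting intervals are exact, at 95%, and treat the rounded values as reads, so they cover counting error only and are approximate where a value is such an average.

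The members and the 50 gene lists were chosen with earlier results of these data known, so counts and medians of lists are descriptions without a test. Named genes were, among genes past the threshold whose libraries do not overlap between groups, the 15 largest and 15 smallest log2 fold changes at a mean of at least 10 CPM, up to 4 per direction in each list, the genes the study and the myogenic state turn on, and all members of the imprinted network, actin and mitochondrial lists. Spans and promoters are from RefSeq (GRCm38.p6). The motifs CANNTG and CArG box, and list medians relative to the gene's span group, were added after seeing the data. Some genes that met the rule for named genes are not reported here.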

Additional observations from a re-analysis of the deposited data

How the results depend on the processing

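No call changed direction under any alternative. DESeq2 moved the count past the threshold most, to 3039 genes (1479 higher, 1560 lower), of which 3037 were shared with edgeR in the same direction. With DESeq2, 15 matrix genes rose, 34 signalling genes rose and 102 fell, 4 imprinted genes rose and 8 fell, 43 transcription factors rose and 66 fell, and 17.1% and 16.6% of higher genes had a Lin28a-RIP or Igf2bp3-RIP peak. Requiring at least 10 counts in every library moved the counts over 2-fold most, to 359 higher and 664 lower, and gave 4 higher imprinted genes and peaks of Lin28a-RIP and Igf2bp3-RIP in 41.3% and 57.5% of lower genes. Of 328 named genes, 79 lost their call in DESeq2 and 16 to 20 when a library was left out. Leaving out 1 library gave 5400 to 5805 genes (2696 to 2820 higher, 2702 to 2985 lower, 490 to 543 higher and 939 to 981 lower over 2-fold). The gene counts of lists then were 30 to 32 higher and 84 to 90 lower for myogenic state, 26 to 27 and 56 to 62 for matrix, 55 to 59 and 139 to 151 for signalling, 7 and 12 to 13 for imprinted genes and 65 to 70 and 102 to 114 for transcription factors. The shares with a peak were 17.3% to 18.1% of higher and 37.7% to 38.2% of lower genes for Lin28a-RIP and 17.0% to 18.3% and 53.1% to 53.4% for Igf2bp3-RIP, lowest for higher genes without control replicate 1. The span medians were 0.24 to 0.29 in the shortest and -0.40 to -0.37 in the longest group. Total counts without TMM moved the median of all genes from 0.01 to 0.04 and gave 3369 higher and 3072 lower genes. Within 100 bases before the start, a shorter window, CAGCTG stood in 5.66% of promoters of higher genes, 7.32% of lower genes and 5.81% of all promoters, and CC and GG with any 6 bases between in 58.0%, 54.7% and 41.6%, with 4.98% and 56.1% among all genes tested. The cause of these changes was not tested. No paired analysis was possible because the Lin28a+ columns have the headers of m6A-RIP samples and hence no replicate number of an input sample. With 2 libraries per group, standard errors lean on the spread that edgeR shares between genes.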

Other observations

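Among cytokine and interferon response genes more fell than rose. Of 23 tested cytokines, chemokines and receptors, 2 rose (8.70%) and 15 fell (65.2%), against 28.1% and 28.7% of all genes, with a median of -0.61. Lif, the interleukin-6 family cytokine that myoblasts secrete, had 6.37 and 6.28 CPM in the control libraries against 0.786 and 0.613 CPM in Lin28a+ libraries (log2 fold change -3.13), and Csf1, the macrophage growth factor, fell from 106.8 and 104.1 CPM to 32.8 and 33.1 CPM (-1.68). Il1r1, the receptor of interleukin-1, rose from 2.997 and 3.22 CPM to 19.1 and 19.6 CPM (2.62). Among 20 interferon response genes, 3 rose and 9 fell, and H2-D1, a class I histocompatibility gene with close relatives whose reads it can share, rose from 3.75 and 4.34 CPM to 25.8 and 23.7 CPM (2.60).

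Of 39 tested ephrin, semaphorin, plexin, slit and netrin genes, 13 rose (33.3%) and 16 fell (41.0%), against 28.1% and 28.7% of all genes. Sema3c, a secreted semaphorin, rose by 1.16, whereas Plxnc1 (-2.75), a semaphorin receptor, Efnb2 (-1.57), a membrane-bound ephrin, and Ntn4 (-1.83), a netrin of basement membranes, fell. Genes of receptor tyrosine kinase ligands and receptors outside the FGF and IGF families, coreceptors included, had 7 higher and 13 lower of 28. Gfra1, a receptor of the neurotrophic factor GDNF, rose by 2.06 on the log2 scale. The ligand gene Angpt1 and the receptor gene Egfr fell by 3.04 and 2.37. Chromosome medians ran from -0.19 on chromosome 18 to 0.16 on chromosome 17.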
